A study of Mus musculus with 2 samples.

Results

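The nuclear subunits of respiratory complexes II to V were described in the heart of adult male mice. Members were genes with at least 1 protein-coding transcript whose symbol begins with Cox4 to Cox8, Uqcr or Atp5, or is Sdha, Sdhb, Sdhc, Sdhd, Cyc1, Cycs or Atpif1. This choice used symbols and no measured value. It found 51 gene models under 50 symbols, out of 55536 mouse genes in the tables, because Atp5o has a second model. Complex II held 4 members, complex III 9, complex IV 18 and complex V 19, and cytochrome c (Cycs) was the remaining 1. Assembly factors, and genes whose symbol shares a stem but that have no protein-coding transcript, were not members.

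Total RNA from the heart of 2 B6CASTF1/J males aged 8 to 10 months was sequenced, 1 library per animal, as a single untreated group. B6CASTF1/J mice are first-generation hybrids of C57BL/6J and CAST, so each animal carries an autosomal allele of each strain. The labels call the animals 2 and 4 but list the same donor entry for both. Replicate 1 is animal 2 and replicate 2 is animal 4, each made from 300 ng of ribosome-depleted RNA with ERCC spike-ins and a directional kit.

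The respiratory chain passes electrons from nutrients to oxygen across the inner mitochondrial membrane, and ATP synthase uses the resulting proton gradient to make ATP. Complex II (succinate dehydrogenase) takes electrons from succinate, complex III passes them to cytochrome c, complex IV (cytochrome c oxidase) hands them to oxygen, and complex V is ATP synthase. Heart muscle depends on this route for nearly all of its ATP, and several small subunits of complex IV have a separate form in heart and skeletal muscle.

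Mouse genes received 42.05 M expected counts (replicate 1) and 39.98 M (replicate 2), of which the members held 771078 and 772676. Levels are TPM, that is, abundance per length relative to the whole library, and ± is the SD over 2 libraries. With 1 group of 2 libraries no condition was tested, and the smallest two-sided p that an exact sign-flip test allows is 0.5. Heart muscle markers (Myh6, Myl2 and 6 others) had a median of 3724 ± 220 TPM, fast skeletal muscle markers 1.88 ± 0.148 TPM, and 5 of 6 male germ cell markers had no count. Lung epithelium markers summed to 15.69 TPM in replicate 1 and 0.03 TPM in replicate 2, nearly all of it Scgb1a1. The part of other cell types in the members' levels was not tested. In bulk tissue, fewer cells of a type and less RNA per cell cannot be told apart.

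The members were among the most abundant nuclear mRNAs of the heart. Their median level was 477 ± 19.1 TPM, against 276 ± 5.65 TPM for 38 nuclear genes with symbols of complex I subunits, 29.0 ± 0.198 TPM for 78 mitochondrial ribosomal proteins, and 7.97 ± 0.0636 TPM for nuclear protein-coding genes at 1 TPM or more. Those 38 were taken by symbol and include Ndufa4, a complex IV component. Of 22015 nuclear protein-coding genes ranked by mean TPM, 27 members stood in the top 100 and 37 in the top 200. Together the members made up 8.28 ± 0.180% of the TPM of nuclear protein-coding genes. In both libraries, 47 members had 1 TPM or more and 41 had 100 TPM or more.

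**Figure D1:**
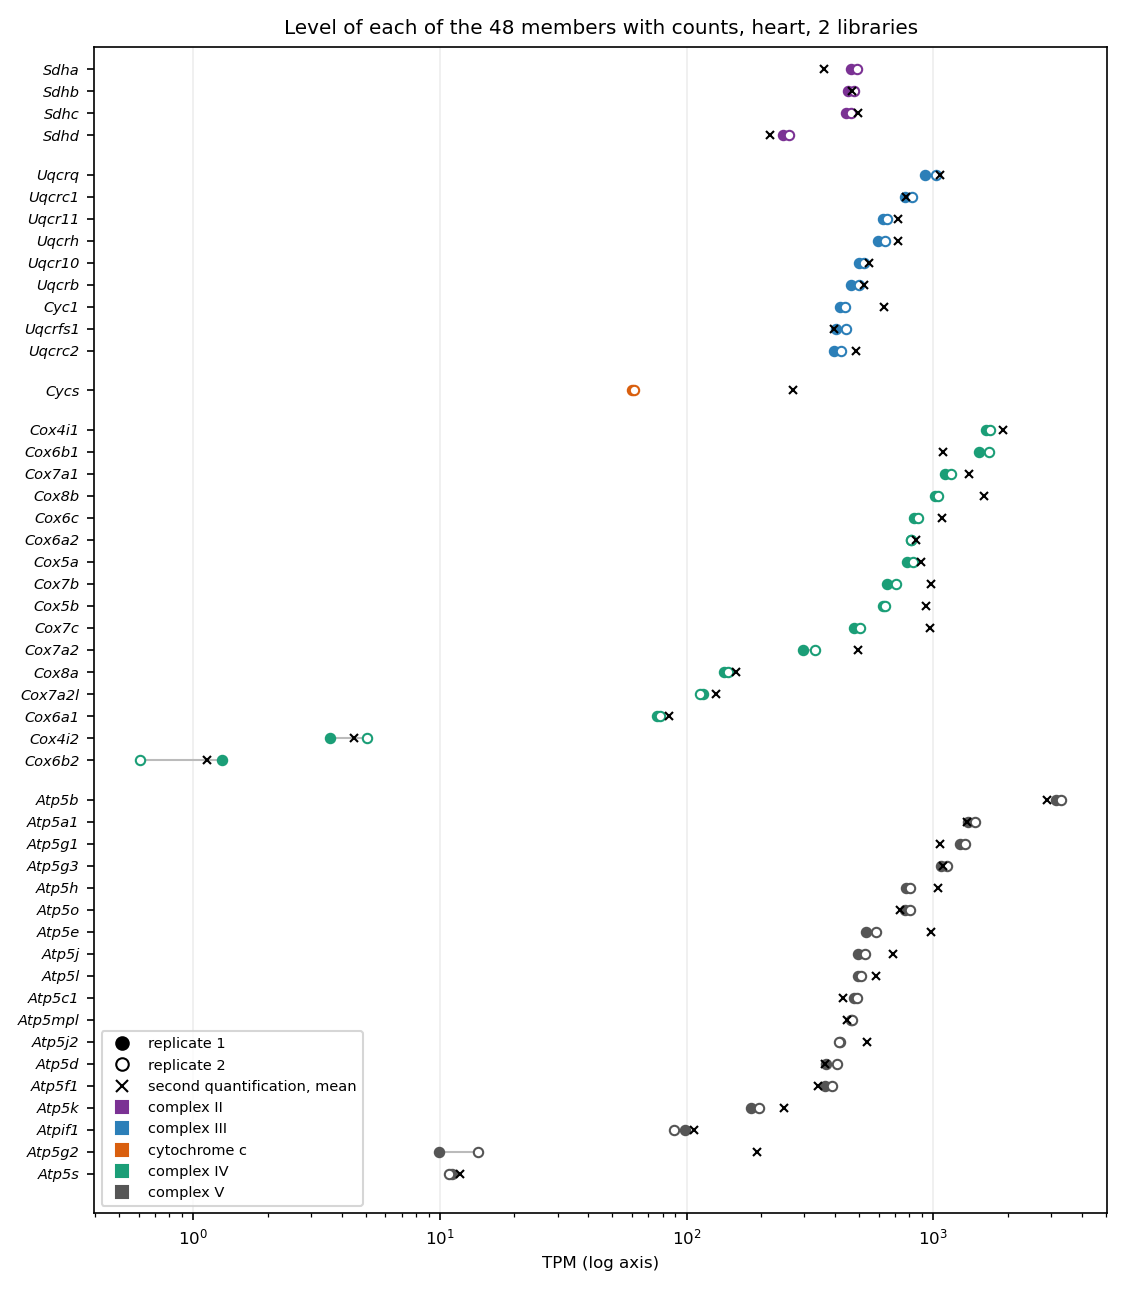
TPM on a log axis of each of the 48 members with counts, grouped by complex. Filled circles are replicate 1, open circles replicate 2, and crosses the mean of the second transcript quantification. Most members lie between 100 and 2000 TPM, the circles of a gene nearly coincide, and the crosses stand far to the right of the circles for Cycs and Atp5g2.

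For each of the 3 complex IV subunits with a heart and muscle form, that form was the more abundant. Cox6a2, the muscle form of subunit 6A (mm10 chromosome 7, 128205435 to 128206387), had 812.87 and 812.89 TPM in replicates 1 and 2. Cox6a1, its counterpart in most other tissues (chromosome 5, 115345642 to 115348981), had 75.60 and 78.03 TPM. The libraries of the pair did not overlap, and the heart form was 10.6-fold higher (log2 ratio 3.40 ± 0.03).

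Cox7a1, the muscle form of subunit 7A (chromosome 7, 30184144 to 30186078), had 1113.35 and 1180.56 TPM. Cox7a2, the widely expressed form (chromosome 9, 79755361 to 79759878), had 296.31 and 331.17 TPM. This was the narrowest of the 3 heart-form pairs, at 3.66-fold (log2 ratio 1.87 ± 0.05), so Cox7a2 still supplied 21.5 ± 0.627% of the pair's TPM. Cox8b, the muscle form of subunit 8 (chromosome 7, 140898945 to 140900446), had 1019.25 and 1041.86 TPM. Cox8a, the widely expressed form (chromosome 19, 7215153 to 7217616), had 141.40 and 147.14 TPM, and the ratio was 7.14-fold (log2 ratio 2.84 ± 0.02). The direction held in both libraries and in the second quantification, where the ratios were 10.0-fold for subunit 6A, 2.80-fold for 7A and 10.1-fold for 8. None of the pairs shared a 31-base stretch between the transcripts with their longest coding sequences, and 66.6% (6A), 66.9% (7A) and 68.6% (8) of aligned coding bases were identical.

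The 3 heart forms lie on chromosome 7, as do the members Cox6b1, Cox6b2 and Uqcrc2. Heart form and counterpart were compared in the sequence before the gene for the pairs of subunits 7A and 8 only. The 250 bases before the RefSeq start of each gene (build GRCm38.p6), written 5′ to 3′ on the gene's strand, are shown for the pairs of subunits 7A and 8, with each CpG in capitals. The GENCODE models of Cox7a1 and Cox7a2 begin just inside these windows.

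Cox7a1, chr7:30183921-30184170, plus strand: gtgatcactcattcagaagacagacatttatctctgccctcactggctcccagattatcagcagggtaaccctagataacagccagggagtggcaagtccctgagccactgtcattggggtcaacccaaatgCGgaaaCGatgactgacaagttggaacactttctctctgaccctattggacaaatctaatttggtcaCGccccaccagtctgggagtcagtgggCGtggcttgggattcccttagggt
Cox7a2, chr9:79759854-79760103, minus strand: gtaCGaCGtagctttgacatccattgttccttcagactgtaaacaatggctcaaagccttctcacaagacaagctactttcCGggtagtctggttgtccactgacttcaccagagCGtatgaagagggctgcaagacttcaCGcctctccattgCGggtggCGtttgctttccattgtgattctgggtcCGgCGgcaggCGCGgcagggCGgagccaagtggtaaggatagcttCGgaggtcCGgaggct
Cox8b, chr7:140900447-140900696, minus strand: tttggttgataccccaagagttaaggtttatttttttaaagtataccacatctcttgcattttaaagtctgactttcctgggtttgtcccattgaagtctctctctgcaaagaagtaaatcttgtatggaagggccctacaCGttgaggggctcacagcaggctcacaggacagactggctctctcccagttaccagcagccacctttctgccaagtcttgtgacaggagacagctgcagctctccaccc
Cox8a, chr19:7217617-7217866, minus strand: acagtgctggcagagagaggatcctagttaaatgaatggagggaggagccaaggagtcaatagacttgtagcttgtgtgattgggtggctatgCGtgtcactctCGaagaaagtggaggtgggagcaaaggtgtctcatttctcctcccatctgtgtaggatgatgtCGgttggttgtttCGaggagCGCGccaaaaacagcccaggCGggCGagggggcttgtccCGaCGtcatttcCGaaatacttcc

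The windows held 4 CpG for Cox7a1 against 14 for Cox7a2, and 1 for Cox8b against 11 for Cox8a. The 2 heart forms had the fewest CpG of the 36 member symbols with a window in the RefSeq table. Cox6a1 had 26, and the window of Cox6a2 was not analysed here. Most members were rich in CpG, with a median of 14 over their 39 windows against 6 over all 32851 windows. Windows with 5 or fewer CpG made up 10.3% of member windows (Cox7a1, Cox8b, Cox7b and Uqcr10) and 49.6% of all. The NRF1 motif (GCGC, any 2 bases, GCGC), searched on both strands like the others, was in 8 of 39 member windows (20.5%) and in 4.98% of all windows. The ETS motif CCGGAAG was in 23.1% of member and 6.91% of all windows, and the ERR half-site AAGGTCA in 7.69% and 4.08%. The YY1 motif (AAGA followed by TGGC) was in 2.56% of member and 1.56% of all windows. The E-box CAGCTG, present in the Cox8b window, was in 7.69% of member and 13.0% of all windows, the TATA motif TATAAA in 5.13% and 12.4%, and the MEF2 motif (CTA, any 4 bases, TAG) in 2.56% and 3.20%. Motifs of the NRF1 kind contain CpG themselves, and a match is a run of letters, not a measured binding site.

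**Figure D2:**
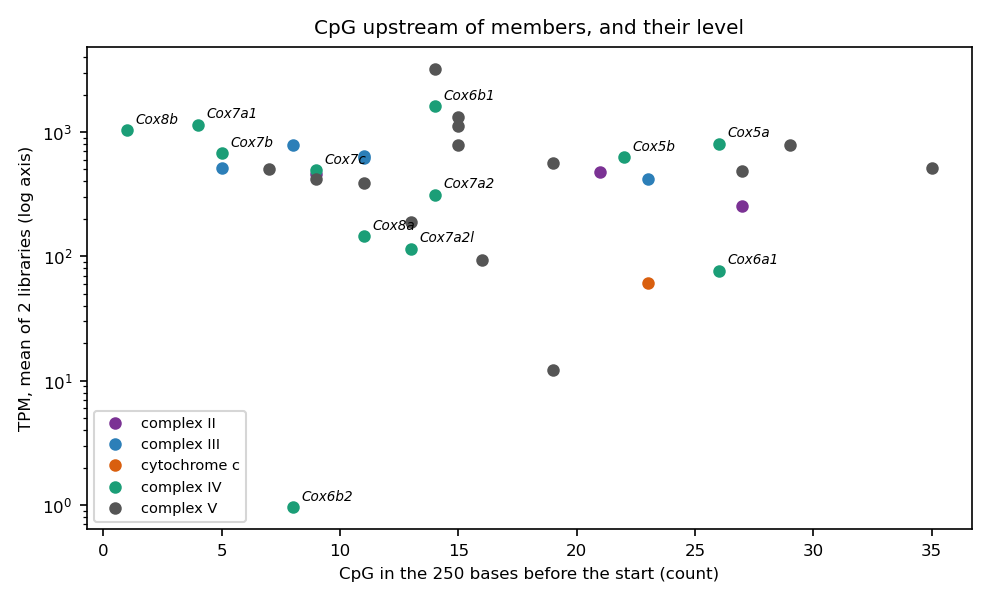
CpG count in the 250 bases before the RefSeq start (x axis, the highest where a gene has several windows) and mean TPM of 2 libraries (y axis, log) for members with a window and counts. Complex IV members are named. Cox8b and Cox7a1 combine the fewest CpG with more than 1000 TPM. At 26 CpG stand both Cox6a1 with 76.8 TPM and Cox5a with 805 TPM.

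The other alternative forms of complex IV subunits had few or no counts. Cox4i1, the common form of subunit 4 and the highest member of the complex, had 1630.35 and 1694.62 TPM. Cox4i2, the form known from lung and oxygen sensing, had 3.58 and 5.05 TPM (78 and 104 counts), a 395-fold gap. Cox6b1, the common form of subunit 6B, had 1530.06 and 1678.03 TPM, whereas the testis form Cox6b2 had 1.31 and 0.61 TPM from 17 and 9 counts, and its log2 gap of 10.81 ± 0.87 rests on those few counts. Cox7b had 652.06 and 706.84 TPM, and its testis form Cox7b2 had no count. Cox8c, the testis form of subunit 8, had none either. With no count, the limit from 3 counts was 0.195 and 0.207 TPM for Cox7b2 and 0.241 and 0.255 TPM for Cox8c. These limits cover counting error only.

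**Figure D3:**
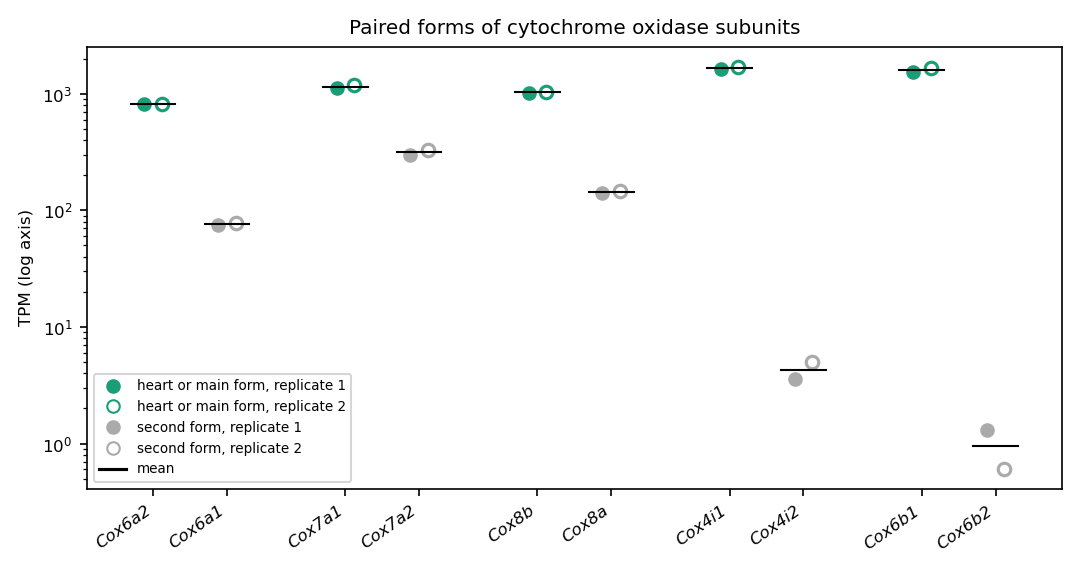
TPM on a log axis of the paired forms of 5 complex IV subunits. Filled circles are replicate 1, open circles replicate 2 and lines their mean. The heart or main form lies above the other form in both libraries of each pair, by 3.66-fold for subunit 7A and by 395-fold for subunit 4.

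The remaining complex IV subunits have 1 form each. Cox6c had 848 ± 23.8 TPM, Cox5a 805 ± 30.95 TPM, Cox5b, a zinc-binding subunit, 631 ± 7.98 TPM and Cox7c 491 ± 21.6 TPM. A set called subunits in use here kept 1 form per subunit (these, Cox4i1, Cox6a2, Cox6b1, Cox7a1, Cox7b and Cox8b). Over these 10 the median was 834 ± 17.0 TPM and the highest stood 3.38-fold above the lowest. The set left out Cox7a2, Cox8a and Cox6a1, which have counts but are the lower forms of their pairs, so both values depend on that choice. The 3.38-fold range also depends on the quantification. Its lowest gene, Cox7c, had 966 TPM in the second quantification, where Cox6a2 was lowest at 849 TPM and Cox4i1 highest at 1911 TPM. Over all 18 complex IV members, tissue forms included, the median in the gene tables was 561 ± 14.8 TPM. Cox7a2l, the subunit 7A relative that joins complexes III and IV into supercomplexes, had 115 ± 2.48 TPM, and Cox7a1 stood 9.95 ± 0.626-fold above it. C57BL/6J mice are known to carry a shortened form of this protein, and the share of each parental allele was not analysed here.

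Complex II members were close to each other, apart from Sdhd. Sdha, the flavoprotein that oxidises succinate, had 463.89 and 490.62 TPM in replicates 1 and 2. Sdhb, the iron-sulfur subunit beside it, had 463 ± 18.0 TPM, so that Sdha over Sdhb was 1.03 ± 0.000749-fold in the gene tables and 0.770-fold in the second quantification. Of the membrane anchors, Sdhc had 453 ± 16.1 TPM, while Sdhd was the lowest member at 245.54 and 260.49 TPM, and Sdhc stood 1.79 ± 0.0112-fold above it. The complex median was 458 ± 17.1 TPM.

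Complex III ranged over 2.39-fold, with a median of 513 ± 18.3 TPM. Uqcrq, a small membrane subunit, was highest at 929.77 and 1029.19 TPM, and Uqcrc2, a core protein, lowest at 396.45 and 422.80 TPM. The other core protein, Uqcrc1, had 792 ± 38.1 TPM, 1.93 ± 0.00499-fold more than Uqcrc2. In the gene tables the redox subunits were close to each other, with 428 ± 14.6 TPM for Cyc1 (cytochrome c1) and 422 ± 28.5 TPM for Uqcrfs1 (the Rieske iron-sulfur protein), a difference within their SD. In the second quantification they were further apart, with Uqcrfs1 at 0.630-fold of Cyc1. The small subunits Uqcr11, Uqcrh, Uqcr10 and Uqcrb lay between 481 and 636 TPM.

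Complex V held the highest member of all. Atp5b, the catalytic beta subunit of the F1 head, had 3132.44 and 3292.71 TPM and ranked 11 among nuclear protein-coding genes. Atp5a1, the alpha subunit with which it alternates in the F1 ring, had 1432 ± 70.1 TPM, and Atp5b stood 2.24 ± 0.0307-fold above it. Models without a coding annotation held 40.5 ± 0.488% of the TPM of Atp5b, against 1.4% for Atp5a1. Expected counts were closer, with 132050 and 132147 for Atp5b against 112753 and 114380 for Atp5a1. The ratio of coding transcripts alone was not computed. The central stalk was lower, with 483 ± 10.7 TPM for Atp5c1 (gamma), 386 ± 28.3 TPM for Atp5d (delta) and 562 ± 37.1 TPM for Atp5e (epsilon). Alpha and beta occur in several copies per enzyme and gamma in 1, and alpha over gamma was 2.96 ± 0.0792-fold while beta over gamma was 6.65 ± 0.0868-fold. The beta values include the models of Atp5b without a coding annotation.

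In the peripheral stalk, Atp5h (subunit d) had 791 ± 19.4 TPM, Atp5o (OSCP) 786 ± 27.3 TPM, Atp5j (F6) 512 ± 24.1 TPM and Atp5f1 (subunit b) 376 ± 15.9 TPM. Of the small membrane subunits, Atp5l (g), Atp5mpl and Atp5j2 (f) lay between 415 and 503 TPM and Atp5k (e) at 189 ± 10.1 TPM. Atpif1, the inhibitor that stops the enzyme from running backwards when the proton gradient fails, had 98.23 and 88.85 TPM, and Atp5b stood 34.5 ± 3.66-fold above it. Atp5s, a coupling protein outside the purified enzyme, had 11.20 and 10.84 TPM, the lowest mean of the complex V members with counts and close to Atp5g2. The second Atp5o model had no count (limit 0.201 and 0.212 TPM).

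Atp5g1, Atp5g2 and Atp5g3 encode the same mature c-ring protein behind different import sequences. Atp5g1 (chromosome 11, 96068852 to 96075670) had 1285.06 and 1344.63 TPM, and Atp5g3 (chromosome 2, 73908447 to 73911326) had 1075.32 and 1139.58 TPM. Atp5g2 (chromosome 15, 102662864 to 102672352) had 9.90 and 14.25 TPM. Atp5g1 thus held 54.0 ± 0.281% of the summed level, Atp5g3 45.5 ± 0.173% and Atp5g2 0.494 ± 0.108%. In the second quantification the shares were 45.4%, 46.5% and 8.17% in that order of genes, so which of Atp5g1 and Atp5g3 was higher depended on the quantification. The summed level hardly moved, at 2434 ± 90.6 TPM against 2356 ± 14.7 TPM in the second quantification. Its parts moved in opposite directions, with Atp5g1 at 1315 and 1069 TPM and Atp5g2 at 12.1 and 192 TPM in that order. The sum leaves out the copies of these genes described below.

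The order of complexes III and V depended on the members kept and on the quantification. By subunits in use, complex IV stood first at 834 TPM, followed by III at 513 ± 18.3 TPM, V at 508 ± 16.6 TPM and II at 458 ± 17.1 TPM, with III and V closer than their SD. In the second quantification IV was again first (1006 ± 28.5 TPM) and II last (414 ± 0.561 TPM), with V at 637 ± 8.99 and III at 630 ± 1.01 TPM. Over all members IV was first as well, at 561 ± 14.8 TPM. There III (513 ± 18.3 TPM) stood above V (483 ± 10.7 TPM), and in the second quantification likewise (630 ± 1.01 against 541 ± 30.3 TPM). Subunits in use left out the lower forms of complex IV pairs, but for complex V kept every c-ring gene, Atp5g2 included.

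Cytochrome c, which carries electrons from complex III to IV, appeared far below both. Cycs (chromosome 6, 50562563 to 50566538) had 59.95 and 61.24 TPM, and Cyc1 stood 7.07 ± 0.135-fold above it. In the second quantification Cycs had 270 TPM, and Cyc1 stood 2.33-fold above it. Cyct, the testis cytochrome c, had 0.37 ± 0.0566 TPM.

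Copies of members elsewhere in the genome held a large share of the counts of several members. A copy was defined as another gene, away from the member's locus, with at least 50% of its own 31-base stretches in the member's transcripts. There were 26 copies of 14 members, of which 21 are annotated as pseudogenes and 10 reached 10 TPM. These copies, and the members named beside them, were singled out after their values were seen. The second quantification put under 1 TPM on 7 of the 10.

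For Cycs, the copy Gm10053 (chromosome 19, 24875686 to 24876631, annotated as protein-coding) received 9833 and 9541 expected counts, more than the 6178 and 6018 counts on Cycs. The other named copy, Gm10108, a processed pseudogene on chromosome 5, received 852 and 944 counts. All 4 copies together held 63.4% of the counts on Cycs and its copies. Cycs with its copies came to 16662 counts in the second quantification and 16684 in the gene tables (0.999-fold). Cycs alone had 9800 counts in the second quantification against 6098 in the gene tables (1.61-fold), and its TPM was 4.45-fold higher. The leading Cycs model also differed, with 607 nucleotides in the second quantification and 3123 in the gene tables. With the copies' TPM added, Cycs reached 521 ± 21.4 TPM, above Cyc1 at 428 TPM, whereas in the second quantification it reached 505 TPM, below Cyc1 at 630 TPM.

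For Atp5g2, the transcribed pseudogene Gm10175 (chromosome 7, 23946646 to 23947290) received 4764 and 4698 counts, against 216 and 295 on Atp5g2 itself. Every 31-base stretch of Gm10175 is in an Atp5g2 transcript, and it holds 87.7% of those of the leading Atp5g2 transcript. The second quantification put 25.0% of the counts of the pair on Gm10175, where the gene tables put 94.9%. Atp5g2 with its copies came to 270 TPM in the second quantification and 269 ± 11.1 TPM in the gene tables, while alone it was 15.9-fold higher in the second quantification.

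For Cox7c, the processed pseudogene Gm12338 (chromosome 11, 75599763 to 75599954), 192 nucleotides long, received 4379 and 4599 counts and 1367.98 and 1522.37 TPM, above the 475.95 and 506.44 TPM of Cox7c. The second quantification gave it none. Because only length less 100 nucleotides enters the TPM of the gene tables, few counts give a copy this short a high TPM. By counts, Cox7c with its copies came to 11529 in the second quantification against 12460 in the gene tables (0.925-fold). In TPM, however, the copies took Cox7c past the second quantification (966 TPM there, 2035 ± 143 TPM in the gene tables). For Atp5l, Gm10221 on chromosome 5 received 3046 and 3340 counts, 29.7% of the counts on the pair, and none in the second quantification. Here the sums moved apart, since Atp5l alone had 7349 counts in the second quantification against 7549 in the gene tables (0.973-fold), and with all its copies 7355 against 10786 (0.682-fold). For Atp5h, Gm10250 on chromosome 15 held 18.5% of the pair's counts, against 0.00754% in the second quantification, whose counts were 1.13-fold those of the gene tables without the copy and 0.921-fold with it. Gm6969, a copy of Cox7a2l on chromosome 12, had similar TPM in both, 96.8 ± 2.26 and 94.9. Its mean counts differed, with 792 in the gene tables and 458 in the second quantification, or 17.2% and 9.32% of the pair's counts. Gm11273 held 7.65% of the counts it shared with Cox5b and Gm10039 2.67% of those with Atp5g1. Which placement is right was not tested.

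**Figure D4:**
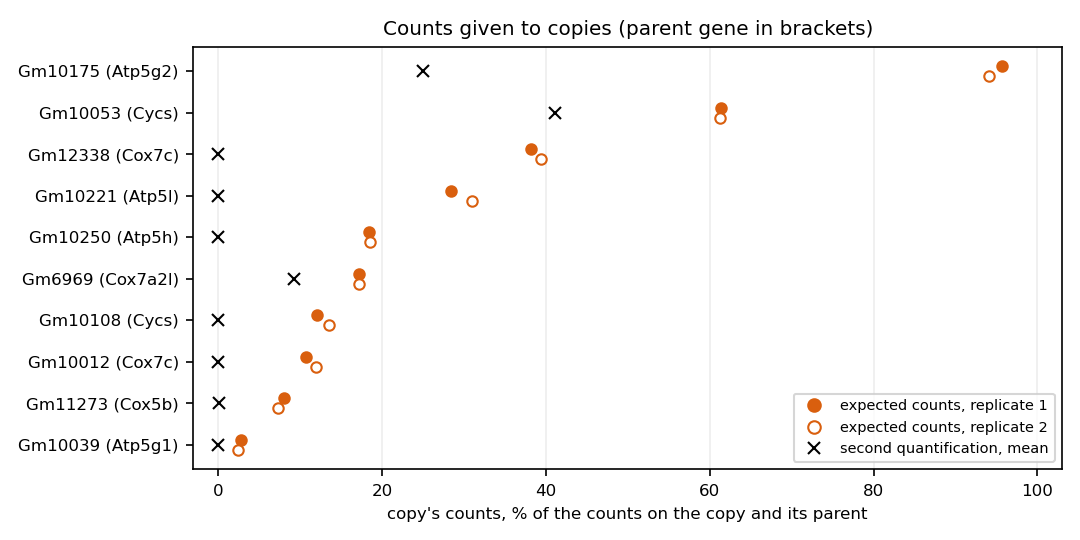
Counts on each of the 10 named copies, as a percentage of the counts on the copy and its parent gene (named in brackets). Filled and open circles are the expected counts of replicates 1 and 2, and crosses the mean of the second quantification. Gm10175 holds over 90% of its pair in both replicates but 25.0% in the second quantification, and 7 crosses lie near 0.

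Across the 47 members at 1 TPM or more in both libraries, 33 were higher in the second quantification, against 32.3% of 10755 nuclear protein-coding genes at that level. Differences over 1.5-fold were all upward and concerned 6 members, or 12.8%, against 3.63% of those genes. Beside Atp5g2, Cycs and Cox7c (1.97-fold) they were Atp5e (1.75-fold), Cox7a2 (1.59-fold) and Cox8b (1.56-fold), for none of which a copy was found. The log2 difference went with shorter length, with Spearman's rho of -0.33 over 47 members and -0.29 over all 10755 genes, which share the same libraries and the same length correction.

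The transcript tables split some members in favour of models without a coding annotation. The leading transcript was the same in both quantifications for 38 of 48 members with counts and its share exceeded 90% in each library for 30. For 5 members it was not annotated as protein-coding. No share over all genes was computed for these counts, so they do not set the members apart. A retained-intron model held 92.9 ± 0.0495% of Atp5j, 72.1 ± 0.205% of Uqcrh and 64.0 ± 2.01% of Cox7b, a processed transcript 71.1 ± 1.80% of Cox5b, and a nonsense-mediated decay model 51.0% of Atp5f1 in each library. In the second quantification the same models led Atp5j (67.4%), Uqcrh (55.0%), Cox7b (99.4%) and Cox5b (67.3%), whereas a coding transcript led Atp5f1. It also put models without a coding annotation first for Cycs (a retained intron, 79.7%) and Cyc1 (nonsense-mediated decay, 40.9%), which made 6 in all. The 5 models that led in the gene tables share most of their gene's coding sequence. Of the 31-base stretches of the main coding sequence, the leading model held 100% for Atp5j, 96.0% for Atp5f1, 82.6% for Cox7b, 69.2% for Uqcrh and 63.9% for Cox5b.

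The ratio of the animals was close to 1 for nearly all members. A gene was called as differing when its summed counts reached 200, the libraries were 2-fold or more apart after scaling, and the exact counting interval of the ratio, at an error rate of 0.001, excluded 1. None of the 46 members with enough counts was called, with a background of 1.08% (118 of 10960 genes). No p-value belongs to this rule, which sets 1 animal against another. A count of 0 among 46 genes is near that background and is not a result about the members.

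Atp5g2 had the largest ratio. It had 216 counts in replicate 1 and 295 in replicate 2, a log2 ratio of -0.50 (counting interval -0.94 to -0.07), while in the second quantification no member was further from 0 than 0.14. Atpif1 was next at 0.18 (-0.01 to 0.36), higher in replicate 1. An absolute log2 ratio of 0.1 or more was found in 7 of 46 members, against 52.2% of all genes counted. Deep genes vary less, however, and 329 genes with at least as many counts as the median member had a median absolute log2 ratio of 0.0634, against 0.0542 for the members.

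Most members were slightly lower in replicate 1. The log2 ratio was below 0 for 40 of 46 members, against 53.9% of all genes counted and 69.9% of the 329 deep genes. It was 36 of 46 with DESeq2 size factors and 41 with total counts. The counting interval lay below 0 for 18 members, against 9.01% of all genes. Counting intervals narrow with depth, and the median member had 21449.5 summed counts. The share among the 329 deep genes was not computed for the interval, so the 9.01% is no matched background. The median ratio was -0.06 in complex II, -0.07 in complex III, -0.04 in complex IV and -0.05 in complex V. The marker sums that follow are TPM, not the scaled counts of the ratios above. In TPM, 43 members were higher in replicate 2 and 5 in replicate 1. No share over all genes was computed for this count, so it does not set the members apart. The summed TPM of nuclear protein-coding genes was also higher in replicate 2 (366410 against 358122 TPM). The 8 heart muscle markers moved the same way, summing to 32123 TPM in replicate 1 and 35040 TPM in replicate 2. Fat markers went the other way, with all 6 higher in replicate 1 and a sum of 22.54 TPM there against 15.58 TPM in replicate 2, and Ucp1 had 43 and 5 counts. Pericyte and smooth muscle markers summed to 244.97 and 255.45 TPM and endothelial markers to 179.06 and 177.00 TPM. The part of these cell types in the members' ratio was not tested, and with 1 library each the animal and its library cannot be told apart.

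**Figure D5:**
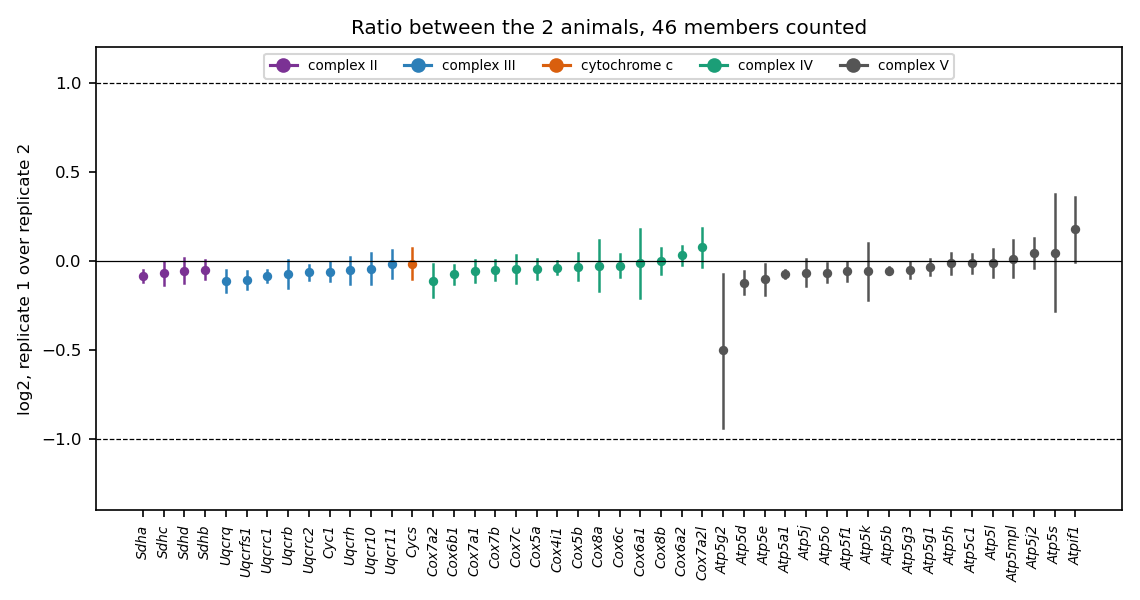
Log2 ratio of replicate 1 over replicate 2 for the 46 members with 200 or more summed counts, with counting intervals (error rate 0.001), coloured by complex. Dashed lines mark a 2-fold ratio. Points lie just below 0 in most members, none passes a dashed line, and Atp5g2 stands lowest at -0.50.

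The partners of the nuclear subunits stood on either side of them. Of the core subunits that the mitochondrial genome encodes, 4 were far higher, with 38676 ± 1035 TPM for mt-Co1 and 36166 ± 1826 TPM for mt-Co3 (complex IV), 17004 ± 1136 TPM for mt-Cytb (complex III) and 16809 ± 1475 TPM for mt-Atp6 (complex V). Values of mt-Co2 (1002 ± 236 TPM) and mt-Atp8 (3451 ± 127 TPM) were lower in the gene tables. By mean TPM there, mt-Co2 was below Cox4i1, Cox6b1, Cox7a1 and Cox8b, and mt-Atp8 was near Atp5b. The libraries differed for mt-Co2 (835.26 and 1169.15 TPM), and in replicate 2 it was above Cox8b (1041.86 TPM). In the second quantification mt-Atp6 (29262 TPM), mt-Co3 (14286 TPM), mt-Co2 (2504 TPM) and mt-Atp8 (4.11 TPM) all moved by more than 1.5-fold. The order changed with them. There mt-Co2 stood above all of the complex IV members, the highest being Cox4i1 at 1911 TPM, and mt-Atp8 far below Atp5b (2897 TPM). The genes mt-Atp8 and mt-Atp6 overlap in part, and the cause of these moves was not tested.

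Assembly factors were lower than the subunits they help to join. The median was 18.8 ± 0.145 TPM for 4 factors of complex II, 15.8 ± 0.332 TPM for 6 of complex III, 24.2 ± 0.601 TPM for 23 of complex IV and 41.5 ± 2.86 TPM for 4 of complex V, and all 37 reached 1 TPM in both libraries. The highest were Sdhaf4 (34.9 ± 1.58 TPM), Uqcc2 (124 ± 4.89 TPM), Cox14 (100.3 ± 2.23 TPM) and Fmc1 (87.8 ± 5.42 TPM). The lowest were Sdhaf3 (1.86 ± 0.240 TPM), Lyrm7 (12.5 ± 0.00707 TPM), Pet117 (4.33 ± 0.460 TPM) and Atpaf2 (17.4 ± 0.445 TPM). Ndufa4, a complex IV component first assigned to complex I, had 1058 ± 45.9 TPM, a level within the range of the complex IV subunits in use, while Higd1a (69.2 ± 3.83 TPM) and Higd2a (71.2 ± 3.26 TPM), which attach to the complex during assembly, were lower.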

How the data were processed

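Expected counts and TPM per gene, and the percent share of each transcript, were used as deposited by the authors in tables with the RSEM column layout, per the file headers. A second set of deposited transcript tables with the kallisto layout, per the file headers, gave estimated counts and TPM, summed here per gene. All use mm10 and GENCODE M21 per the file listings. The versions of these tools were not given in the sources used here. Effective length is length less 100 nucleotides in the gene tables, and less a median of 249 or 248 in the second, so short RNAs are scaled differently. The CAST allele was not analysed separately.

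Levels are mean ± SD over 2 libraries. Counts were rounded and scaled with TMM (edgeR 4.0.16) over all mouse genes. Intervals are exact Clopper-Pearson and cover counting error only. The libraries' counts differed beyond sampling (chi-square per degree of freedom 15.4 over 17075 genes). Promoter windows came from RefSeq. Python 3.11.15, R 4.3.3 and DESeq2 1.42.0 were used. The symbol rule for members used no measured value, but the rule and the lists were chosen with earlier results of these data known. Values in both libraries are given for paralog and c-ring genes, the highest and lowest member of each complex, members without counts, and the 2 largest ratios between animals. Alternatives tried were the second quantification, other scalings and filters, and leaving out a library.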

Additional observations from a re-analysis of the deposited data

How the results depend on the processing

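The depth of each library sets counting error only, and the spread rests on 2 libraries. No paired analysis was possible because there is 1 group. No paralog ratio changed sign, but Atp5g1 and Atp5g3, and complexes III and V by subunits in use, changed order in the second quantification. With 2 libraries, leaving out 1 gives the other's value, which says nothing about stability. Members called as differing stayed at 0 under every scaling, count minimum and fold tried, and in the second quantification. The largest move was that of Atp5g2, given with the c-ring shares. Complex medians in the second quantification were 414 TPM (II), 630 (III), 270 (cytochrome c), 871 (IV) and 541 (V), and 533 over all members. Rescaled to nuclear protein-coding genes they were 1264, 1415, 167, 1548 and 1334 TPM in that order. With members at 1 TPM or more, complex IV was at 679 TPM, and with subunits in use it was 834 TPM, with V at 508 TPM. With the TPM of copies added, an alternative chosen after seeing the data, cytochrome c was at 521 TPM and complex IV at 690 TPM. The log2 ratio was 3.33 for Cox6a2 over Cox6a1, 1.49 for Cox7a1 over Cox7a2 and 3.34 for Cox8b over Cox8a in the second quantification. With expected counts it was 3.70, 1.12 and 2.05 in that order. With a pseudocount of 1 TPM, Cox6b1 over Cox6b2 was at 9.70. The c-ring shares were 45.4% (Atp5g1), 8.17% (Atp5g2) and 46.5% (Atp5g3) in the second quantification. Of 48 members with counts, 40 moved by more than 1 SD there. That SD comes from 2 libraries and can be very small (0.0141 TPM for Cox6a2), and no share over all genes was computed. A leading transcript exceeded a 90% share in each library for 30 members, and for 21 in the second quantification. The cause was not tested.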
